A study of Mus musculus with 16 samples.

Results

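The mitosis and spindle genes are 38 genes whose products build the spindle, hold chromosomes to it, time the separation of the chromatids or cut the cell apart afterwards. They were taken by symbol from a fixed list, and all 38 were found among the 25719 genes measured in tail tendon fascicles, the collagen strands that fill the mouse tail. RNA was sequenced from 8 wild type libraries and 8 libraries of ScxCre;Vhl f/f mice, called the knockout here, in which Cre driven by the tendon gene Scx recombines a floxed Vhl. VHL is the part of a ubiquitin ligase that marks hydroxylated HIF1α for degradation. Deletion is limited to cells with a history of Scx expression, while the RNA comes from all cells of the tissue. Age of the mice was not used here. Sex entered only through the level of Y-linked transcripts, as a covariate in an alternative fit. Nothing in the labels says whether the 8 libraries of a genotype came from separate mice, so p-values measure the spread between libraries, which may in part be technical.

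Dividing cells make these transcripts in a wave. Quiescent cells hold the genes silent through the DREAM complex, which sits on a promoter element called the cell cycle genes homology region (CHR). In cells that return to the cycle its core, named MuvB, instead works with MYBL2 and the forkhead factor FOXM1, and the genes reach their peak between the end of DNA replication and cell division. Tail tendon of adult animals is a tissue of slow turnover in which few cells are known to divide.

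Total counts per library were 10488355 to 18753254 for the knockout and 10792900 to 16379401 for the wild type. Levels are given as CPM, the count scaled to a common library size. Vhl itself was at 7.51 to 10.9 CPM in knockout and 14.1 to 25.8 CPM in wild type libraries, so each library followed its label. Summed tenocyte markers (Scx, Tnmd, Mkx, Fmod, Thbs4, Col1a1 and Col1a2) were at 76248 to 179543 CPM in knockout and 129038 to 378482 CPM in wild type libraries. Of the 7, 5 were lower in the knockout, where 22.7% of all tested genes were. Skeletal muscle transcripts set some libraries apart. Their summed level exceeded 4000 CPM in knockout libraries 6, 7 and 8 and in wild type library 5, and ran from 144 to 8184 CPM over knockout and from 50.6 to 4162 CPM over wild type libraries.

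Of the 38 mitosis and spindle genes, 36 were higher in the knockout and none was lower, and all 38 differences were above 0. Mki67 and Top2a, the usual markers of cycling cells, rose 4.42-fold and 4.97-fold, the mitotic kinase gene Cdk1 rose 4.66-fold and its activating cyclin Ccnb1 rose 6.11-fold. The median difference over the 38 genes was 1.73 on the log2 scale, or 3.32-fold, where the median over all 14803 tested genes was 0.02. It includes 18 genes, Cdk1 and Ccnb1 among them, that passed the filter on low counts only with the help of knockout libraries. Over those tested genes 48.3% were called, 25.6% higher and 22.7% lower (quasi-likelihood test of edgeR, Benjamini-Hochberg adjusted p under 0.05). A rise of at least 2-fold that also passed the threshold was found in 33 of the 38 genes, against 8.3% of all tested genes, and the fold was at least 4 in 14. In 27 genes every knockout library lay above every wild type library, against 10.8% of all tested genes. Adjusted p-values of the 36 higher genes lay between 6.03e-09 for Tpx2 and 0.00174 for Bub1b. The 2 that did not pass were Mad2l1 and Ube2c.

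**Figure D1:**
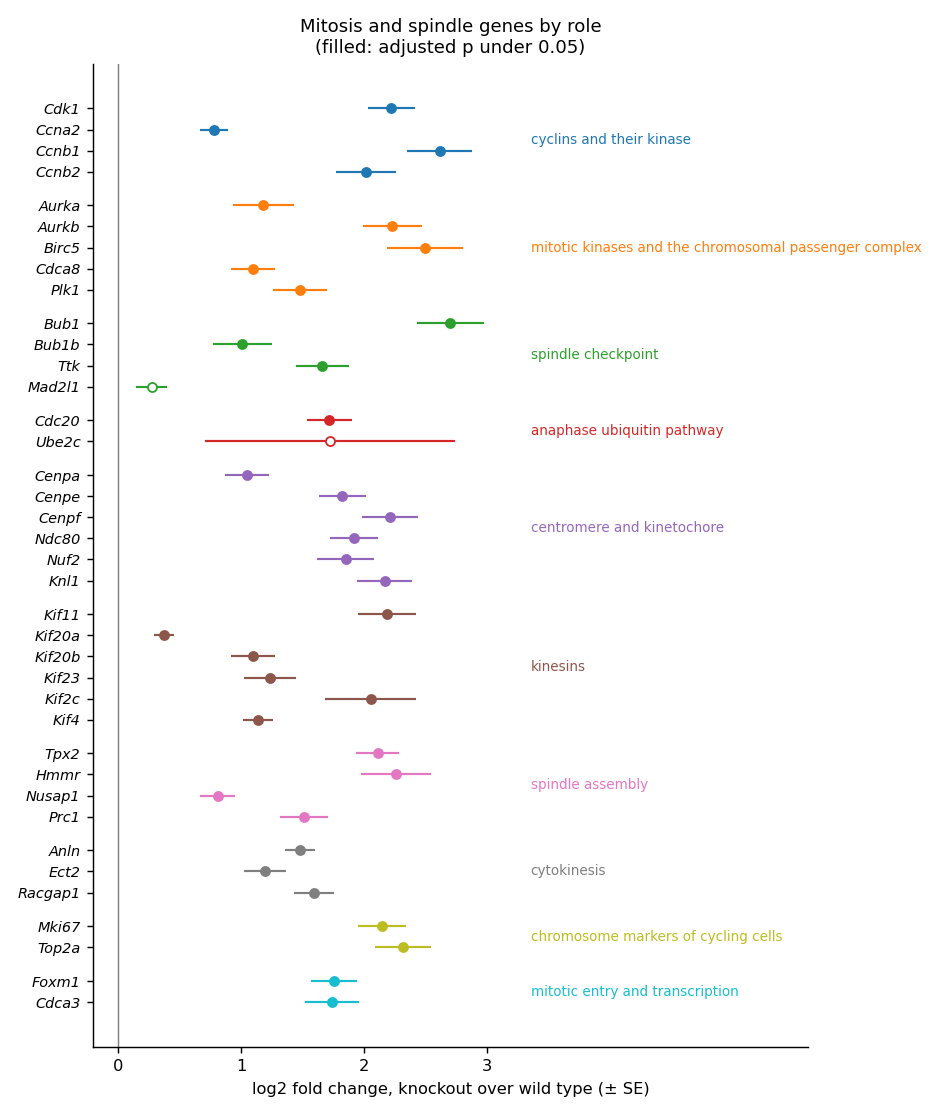
Log2 fold change of knockout over wild type for each of the 38 mitosis and spindle genes, ordered and coloured by role, with the standard error of the edgeR fit as horizontal bars and filled points for genes past the threshold. Points lie between 0.27 for Mad2l1 and 2.70 for Bub1, and the bar of Ube2c is the widest.

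All 38 genes passed the filter on low counts, which asked for 0.885 CPM in at least 8 libraries. In the wild type alone, 20 of them reached that level in all 8 libraries, and 19 of these 20 were higher in the knockout. The other 18 needed knockout libraries to pass, so for them being tested already favoured a difference. Without any filter, 36 of the 38 were again called higher, where 21.4% of 21380 genes were. The median over the 38 was then 1.73, against 0.06 over all these genes. In 7 genes at least 1 wild type library held 3 counts or fewer, and in none did all 8. Because the libraries average over a whole tissue, fewer cells with a transcript and less transcript per cell cannot be told apart anywhere in these data.

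The elements through which the pathway is known to act can be looked for in the promoters, and those shown belong to genes described below. Windows of 300 bases, from 250 before to 50 after the annotated start, were taken from RefSeq (GRCm38.p6), where 33 of the 38 genes had an entry, with 35 windows in all. The CHR was searched as TTTGAA or TTCGAA and the CCAAT box, the binding sequence of NF-Y, as CCAAT, each on both strands. No match of one shares a base with the other in the sequences shown. A CHR was found in 82.9% of the member windows, in 13.9% of the 13402 windows of tested genes and in 19.2% of all 32851 windows in the table. A CCAAT box was found in 74.3%, 37.2% and 37.4%, and both together in 68.6%, 5.59% and 7.52%. In 59 windows of other mitosis genes, a list described further below, the shares with a CHR, a CCAAT box and both were 57.6%, 71.2% and 45.8%. In 38 windows of DNA replication genes they were 21.1%, 60.5% and 18.4%. The CCAAT share of the 38 genes was thus close to that of other mitosis genes. The core of the HIF response element, ACGTG or GCGTG on either strand, was in 68.6% of member windows and 60.5% of those of tested genes, and an E2F sequence (TTTCCCGC or TTTGGCGC) was in none of the 35 and in 2.69%. Matches are descriptions of letters, not of binding. The sequences below run from 150 bases before to 20 after the start, 5′ to 3′ along the gene, with CHR and CCAAT matches in capitals.
Mki67, chr7:135716360-135716529, minus strand: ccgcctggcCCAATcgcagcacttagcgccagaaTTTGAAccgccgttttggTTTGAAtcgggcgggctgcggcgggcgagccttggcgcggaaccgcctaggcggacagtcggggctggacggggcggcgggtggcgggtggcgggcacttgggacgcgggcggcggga
Cdk1, chr10:69352893-69353062, minus strand: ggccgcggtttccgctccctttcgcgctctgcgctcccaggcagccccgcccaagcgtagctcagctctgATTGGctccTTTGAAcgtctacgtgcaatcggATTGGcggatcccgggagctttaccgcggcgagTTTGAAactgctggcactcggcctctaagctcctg
Ccnb1, chr13:100786467-100786636, minus strand: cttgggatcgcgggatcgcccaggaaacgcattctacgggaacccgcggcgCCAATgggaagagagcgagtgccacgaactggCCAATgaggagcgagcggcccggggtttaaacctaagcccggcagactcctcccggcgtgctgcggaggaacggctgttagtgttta
Ccnb2, chr9:70421535-70421704, minus strand: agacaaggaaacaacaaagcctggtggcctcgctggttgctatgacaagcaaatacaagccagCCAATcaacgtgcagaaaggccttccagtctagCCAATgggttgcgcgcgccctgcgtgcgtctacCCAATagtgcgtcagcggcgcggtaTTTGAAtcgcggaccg
Cdc20, chr4:118437324-118437493, minus strand: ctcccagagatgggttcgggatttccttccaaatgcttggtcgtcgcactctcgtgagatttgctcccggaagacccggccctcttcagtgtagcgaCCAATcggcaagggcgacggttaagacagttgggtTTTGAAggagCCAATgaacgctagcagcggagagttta
Hmmr, chr11:40733418-40733587, minus strand: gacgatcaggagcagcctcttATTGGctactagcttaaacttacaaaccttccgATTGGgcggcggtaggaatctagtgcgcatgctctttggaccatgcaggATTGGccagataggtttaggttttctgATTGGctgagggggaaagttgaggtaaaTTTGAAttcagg
Mad2l1, chr6:66535071-66535240, plus strand: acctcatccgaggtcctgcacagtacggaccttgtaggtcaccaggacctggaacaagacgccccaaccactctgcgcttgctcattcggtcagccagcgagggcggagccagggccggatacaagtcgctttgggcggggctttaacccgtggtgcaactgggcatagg
The windows of Cdk1, Mki67, Ccnb2, Cdc20 and Hmmr hold both elements. In Ccnb2 the 3 CCAAT boxes follow each other at steps of 33 and 33 bases, and in Ccnb1 the 2 boxes are 32 bases apart with no CHR in the window. Of the 2 genes that did not pass the test, the window of Mad2l1 holds neither and that of Ube2c holds both. The windows of Birc5, Nuf2 and Nusap1, which did pass, hold neither as well.

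The cyclins and their kinase all rose, with a median log2 difference of 2.12. Cdk1, the kinase that drives entry into mitosis, had a lowest, median and highest value of 3.59, 4.59 and 6.28 CPM in knockout and of 0.561, 0.901 and 1.44 CPM in wild type libraries. No library of one genotype reached the other (log2 difference 2.22, SE 0.190, edgeR adjusted p = 1.01e-08). Ccnb1, the cyclin that activates it, ran 2.52, 3.98 and 5.54 CPM against 0.112, 0.636 and 1.12 CPM, again without overlap. Its log2 difference of 2.61 (SE 0.265, adjusted p = 1.10e-07) was the second largest of the 38. Only 1 of the 8 wild type libraries reached the level of the filter for Ccnb1, and the lowest held 1 count. Ccnb2, the cyclin B found at the Golgi, ran 2.38, 3.92 and 5.91 CPM against 0.303, 1.08 and 1.34 CPM (2.01, SE 0.242, adjusted p = 1.03e-06). Ccna2, which acts already in S phase, changed least of the 4. It ran 9.65, 13.5 and 15.0 CPM against 6.07, 7.45 and 9.22 CPM, apart in every library but by 0.78 in log2 (SE 0.115, adjusted p = 1.29e-05).

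The markers of cycling cells were apart between the genotypes by a wide margin. Mki67, which encodes the Ki-67 protein coating mitotic chromosomes, had a lowest, median and highest value of 35.5, 62.4 and 77.5 CPM in knockout and 8.66, 12.3 and 21.8 CPM in wild type libraries (log2 difference 2.14, SE 0.194, adjusted p = 6.57e-08). Top2a, the topoisomerase that untangles sister chromatids, ran 13.5, 20.8 and 27.2 CPM against 2.28, 3.42 and 7.05 CPM (2.31, SE 0.228, adjusted p = 1.46e-07). In both genes the lowest knockout library was above the highest wild type library. Over the 37 genes other than Ube2c, wild type libraries 5 and 8 were the highest of their group in 15 genes each.

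All 5 mitotic kinase and chromosomal passenger genes rose. Birc5 and Aurkb, the survivin subunit and the kinase of the passenger complex that corrects faulty attachments, rose by 2.49 and 2.23 in log2, and Aurkb ran 2.53, 3.19 and 4.37 CPM against 0.199, 0.678 and 1.34 CPM (SE 0.241, adjusted p = 2.57e-07). Plk1, which matures centrosomes and promotes mitotic entry, ran 1.65, 2.64 and 3.64 CPM against 0.597, 0.774 and 1.79 CPM, so the groups met at their edges (1.48, SE 0.218, adjusted p = 1.36e-05). Aurka, the spindle pole kinase, ran 1.11, 1.86 and 3.64 CPM against 0.497, 0.866 and 1.36 CPM and overlapped more (1.18, SE 0.251, adjusted p = 6.35e-04). Cdca8, the borealin subunit of the passenger complex, rose by 1.09 with overlap.

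Spindle checkpoint genes hold back chromatid separation until every kinetochore is attached, and here they split. Bub1, a kinase that recruits the checkpoint to kinetochores, had the largest difference of all 38 genes, from 0.375 ± 0.135 CPM in the wild type to 2.48 ± 0.885 CPM in the knockout (SD, n = 8), or 2.70 in log2 (SE 0.274, adjusted p = 1.12e-07). In 3 wild type libraries Bub1 had 3 counts or fewer. Ttk, the kinase MPS1, rose by 1.66 without overlap. Bub1b, which encodes BUBR1, ran 5.14, 7.86 and 9.29 CPM against 1.53, 3.80 and 6.37 CPM and rose by 1.01 (SE 0.239, adjusted p = 0.00174). Mad2l1, the checkpoint protein that captures CDC20, ran 6.15, 6.77 and 9.44 CPM against 4.46, 6.15 and 7.24 CPM. The groups overlapped between 6.15 and 7.24 CPM, and its difference of 0.27 missed the threshold (SE 0.126, adjusted p = 0.0797). It passed without wild type library 8, its highest of the group, at 0.32 (adjusted p = 0.0487), and with total counts, at 0.58.

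CDC20 and UBE2C act in the ubiquitin ligase that starts anaphase. Cdc20 ran 3.04, 4.95 and 6.48 CPM against 0.983, 1.41 and 1.83 CPM and rose by 1.72 (SE 0.183, adjusted p = 2.08e-07). Ube2c varied far more within each genotype than any other of the 38 genes, from 5.24 to 173 CPM over knockout and from 0.832 to 93.8 CPM over wild type libraries. Its 3 highest knockout values were 125, 170 and 173 CPM in libraries 6, 7 and 8, and its highest wild type value was in library 5, the same 4 libraries that carried much skeletal muscle RNA. Its difference of 1.72 did not pass (SE 1.01, adjusted p = 0.178). Exons of Ube2c overlap those of Tnnc2, the troponin C of fast muscle, on the other strand in the GENCODE M21 annotation, and Tnnc2 had nearly the same counts as Ube2c in the libraries rich in muscle RNA, 3464 against 3504 in knockout library 7 and 970 against 977 in wild type library 5. Whether counting kept the strands apart is not given in the sources used here, so the value of Ube2c is uncertain.

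**Figure D2:**
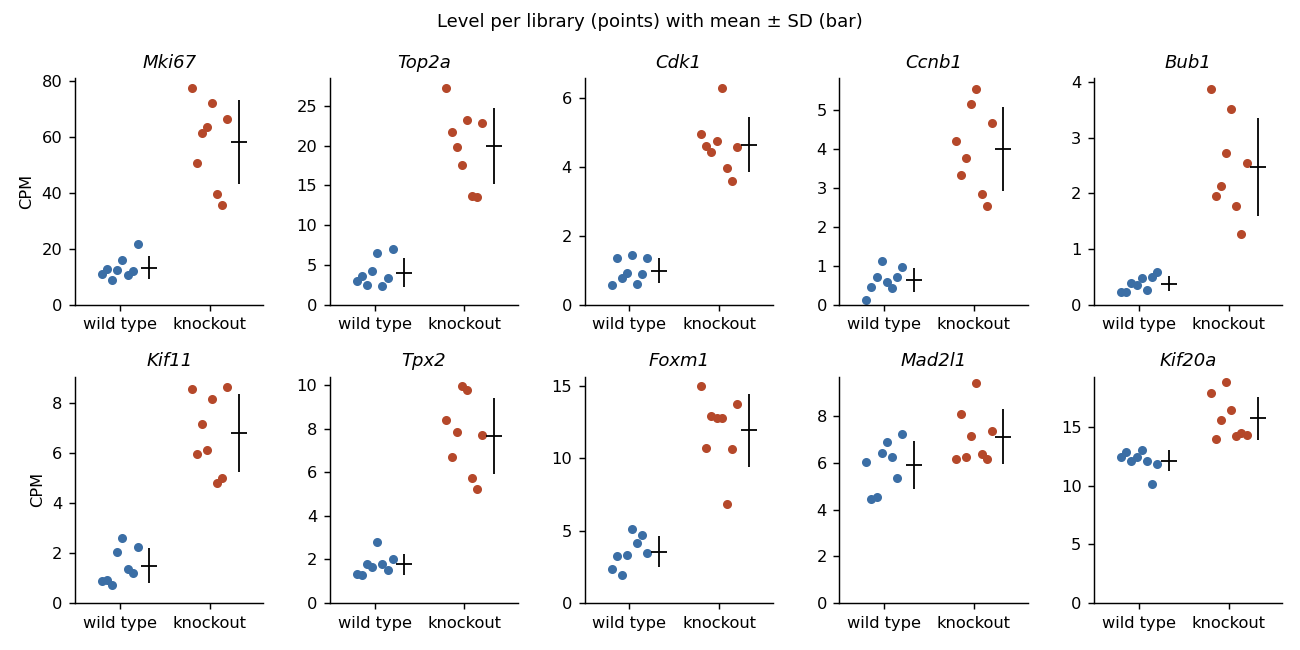
CPM of 10 mitosis and spindle genes in each of the 8 wild type (blue) and 8 knockout (red) libraries on linear axes that start at 0, with 1 point per library and the mean ± SD of each group beside the points. Mki67 lies at 35.5 to 77.5 CPM in knockout and 8.66 to 21.8 CPM in wild type libraries. The groups overlap for Mad2l1 and lie close together for Kif20a.

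The 6 centromere and kinetochore genes rose, by between 1.05 and 2.21 in log2. Cenpf and Cenpe, large proteins of the outer kinetochore, rose by 2.21 and 1.82 without overlap. Ndc80 and Nuf2, both subunits of the complex that grips microtubules, rose by 1.92 and 1.85, and Knl1, the scaffold that receives the checkpoint proteins, by 2.16. Cenpa, the histone variant that marks the centromere, had the smallest change of the group. It ran 4.16, 7.10 and 9.15 CPM against 2.27, 3.17 and 5.21 CPM, with overlap (1.05, SE 0.176, adjusted p = 5.81e-05).

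The 6 kinesins, motor proteins that move along or take apart microtubules, also rose. Kif11, the motor that pushes the spindle poles apart, ran 4.82, 6.64 and 8.66 CPM against 0.702, 1.27 and 2.59 CPM (2.19, SE 0.237, adjusted p = 2.64e-07). Kif2c, a kinesin that depolymerises microtubules at centromeres, rose by 2.05, and 3 of its wild type libraries had 3 counts or fewer. Kif4, a chromosome arm motor, Kif20b and Kif23, both motors of cytokinesis, rose by 1.14, 1.10 and 1.23. Kif20a, a motor of the central spindle, differed least. It ran 14.0, 15.1 and 18.9 CPM against 10.1, 12.3 and 13.1 CPM, apart in every library at a difference of 0.37 (SE 0.0782, adjusted p = 5.40e-04).

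Genes of spindle assembly and cytokinesis followed. Tpx2, which activates Aurora A and nucleates microtubules near chromosomes, ran 5.24, 7.79 and 9.96 CPM against 1.29, 1.72 and 2.79 CPM (2.11, SE 0.174). Hmmr, a spindle pole protein also known as a hyaluronan receptor, rose by 2.26, Prc1, which bundles midzone microtubules, by 1.51 and Nusap1, another microtubule bundling protein, by 0.81 with overlap. Of the cytokinesis genes, the contractile ring scaffold Anln went from 9.40 ± 1.28 CPM in the wild type to 26.2 ± 5.66 CPM in the knockout (SD, n = 8; 1.48), Ect2, the exchange factor that starts furrowing, rose by 1.19 and its partner Racgap1 by 1.59, all without overlap. Foxm1, the transcription factor that drives many of these genes, ran 6.84, 12.8 and 15.0 CPM against 1.95, 3.38 and 5.09 CPM (1.75, SE 0.184, adjusted p = 1.65e-07), and Cdca3, which helps degrade the kinase WEE1, rose by 1.74.

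Several of the smaller differences belong to genes with exon overlaps. In GENCODE M21, 10 of the 38 genes share exon bases with another measured gene, and these had a median log2 difference of 1.31, from 0.37 to 1.75. The other 28 had a median of 1.97, from 0.27 to 2.70. The 3 genes that rose by less than 2-fold, Ccna2, Kif20a and Nusap1, are all among the 10. The neighbours of these 3 on the other strand did not pass the threshold. Beside Kif20a, Cdc23 was at 44.9 ± 1.85 CPM in knockout and 45.8 ± 1.89 CPM in wild type libraries (SD, n = 8; edgeR log2 difference -0.03, adjusted p = 0.637), Exosc9 differed by 0.02 (adjusted p = 0.880) beside Ccna2 and Oip5 by 0.11 (adjusted p = 0.683) beside Nusap1. Neighbours of other members did pass: Rccd1 beside Prc1 differed by 0.67 (adjusted p = 0.00121), Gm44596 beside Foxm1 by 0.95 (adjusted p = 3.67e-04) and Elovl1 beside Cdc20 by -0.20 (adjusted p = 0.0486). How far reads of the neighbours entered the counts was not tested.

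Other parts of the mitotic machinery mostly rose as well. Of 67 further mitosis genes, 59 were tested. Of these, 46 were higher and 3 lower, where 25.6% and 22.7% of all tested genes were. The other 10 were not past the threshold, and the median log2 difference was 0.83. Kntc1, which brings the dynein motor to kinetochores, rose from 0.489 ± 0.278 to 9.10 ± 1.17 CPM (SD, n = 8; 4.19, SE 0.236, adjusted p = 2.55e-11). The centrosome kinase gene Nek2 rose by 2.63 and the microtubule polymerase gene Ckap5 by 0.74. The 3 that fell, named after their values were seen, were Espl1 by 0.63, Pttg1 by 0.52 and the condensin subunit Ncapd2 by 0.64. Espl1 and Pttg1 encode separase, the protease that opens cohesin, and securin, its inhibitor. All 3 overlapped between the groups.

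Genes of the phases before mitosis were counted in the same fit. Of 37 DNA replication genes, 28 were higher and none was lower, where 25.6% and 22.7% of all tested genes were. The other 9 did not pass, and the median was 0.51. E2f1, an activator of S phase genes, went from 15.0 ± 2.20 to 46.5 ± 10.5 CPM (1.63, SE 0.129), Ccne2, a cyclin of S phase entry, from 11.4 ± 1.58 to 30.0 ± 5.31 CPM (1.39, SE 0.108), and Uhrf1, which maintains DNA methylation at forks, from 1.51 ± 0.654 to 9.01 ± 2.77 CPM (2.58, SE 0.252; SD, n = 8 in each). Among 21 tested G1 regulators and inhibitors of the cyclin-dependent kinases, 11 were higher and 3 lower, where 25.6% and 22.7% of all tested genes were, with a median of 0.24. Cdk6, a kinase of G1, rose by 0.94, and Mdm2, the ligase that restrains p53, by 0.64.

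Inhibitors of the cyclin-dependent kinases went both ways. Cdkn1a, which encodes p21, rose from 40.3 ± 6.36 to 136 ± 33.4 CPM (SD, n = 8; 1.76, SE 0.143, adjusted p = 8.59e-09), apart in every library. Cdkn2b, for p15, rose by 2.04 and Cdkn1b, for p27, by 0.35. Cdkn2c, for p18, fell by 0.96 from 21.1 ± 4.47 to 10.8 ± 1.77 CPM, also apart. Cdkn1c, for p57, fell by 0.51 (adjusted p = 0.0152), and this call was lost with total counts, with voom, without the libraries rich in muscle RNA and without those high in Pecam1, where it was at -0.34 (adjusted p = 0.289). Cdkn2d was at 0.04, and Cdkn2a was too low to test. Of the partners of FOXM1, Lin9 rose by 0.66 and Mybl2 by 0.57, while Rbbp4 fell by 0.22, a direction that turns to 0.08 with total counts. The call of Mybl2 was lost without the libraries high in Pecam1, at 0.47 (adjusted p = 0.187). The list these genes came from, which also held dimer partners of E2F, had a median of 0.02 over its 7 tested genes. Of 8 genes listed, 7 were found among those measured.

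**Figure D3:**
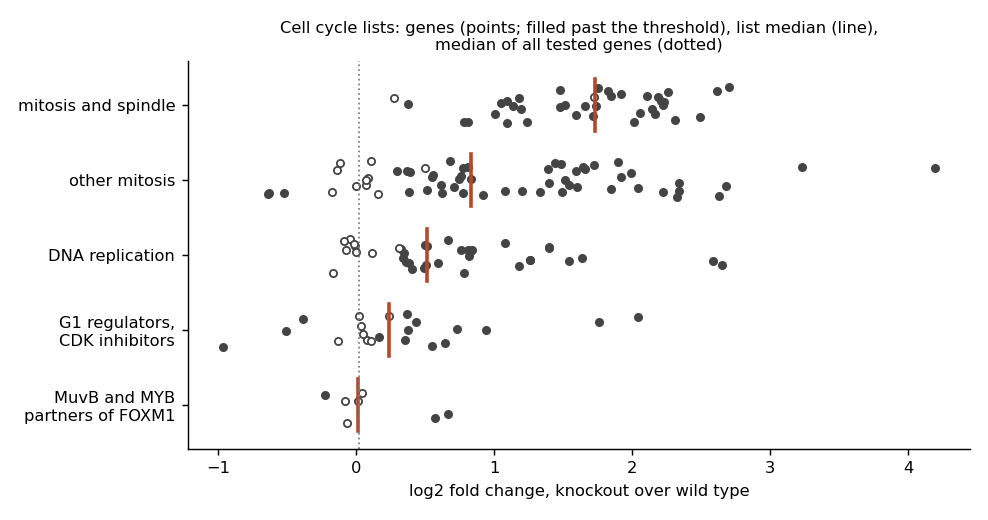
Log2 fold change of knockout over wild type for every tested gene of the mitosis and spindle genes and of 4 further cell cycle lists, 1 point per gene, filled where the gene passed the threshold. The line in each list is its median, 1.73, 0.83, 0.51, 0.24 and 0.02 from top to bottom, and the dotted line is the median of all tested genes.

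Transcripts of other cell types differed between the genotypes too. The counts of higher markers given here stand beside a share of 25.6% higher over all tested genes. Summed endothelial markers were at 64.5 to 612 CPM in knockout and 41.3 to 59.5 CPM in wild type libraries, and 8 of 10 tested markers were higher. Mural cell markers ran from 210 to 1275 against 170 to 254 CPM. Of 6 tested, 5 were higher and 1 was lower, where 22.7% of all tested genes were lower. Erythroid markers ran from 77.8 to 563 against 15.1 to 50.8 CPM, with 5 of 5 tested markers higher, and the part of erythroid cells in the mitotic transcripts was not tested. Macrophage markers shared a range, 737 to 1160 against 742 to 1130 CPM, and 1 of 7 was higher. Lymphocyte markers stayed at or below 1.37 CPM and markers of neutrophils and their precursors at or below 5.30 CPM in sum, with no marker high enough to test.

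Knockout libraries differed widely in Pecam1, a surface protein of endothelial cells, which lay between 4.59 and 148 CPM in them, against 0.253 to 2.02 CPM in wild type libraries. Set in the order of Pecam1, the mitotic transcripts were highest in the middle of the knockout and lowest at its upper end. The summed level of the 37 genes without Ube2c was 292 CPM in library 2, which had the least Pecam1 at 4.59 CPM, then 314 in library 3 with 8.89 CPM and 371 in library 5 with 16.6 CPM. It peaked at 390 CPM in library 1, with 39.8 CPM of Pecam1, and was 336 and 339 CPM in libraries 4 and 8, with 49.6 and 94.0 CPM. The 2 libraries with the most Pecam1, library 6 with 108 CPM and library 7 with 148 CPM, had the lowest sums, 228 and 224 CPM. Every one of these sums was above the highest wild type sum of 141 CPM, and the group means were 311.8 ± 60.9 and 108.1 ± 17.7 CPM (SD, n = 8). Libraries 7 and 6 were among the 2 lowest of the knockout in 33 and 30 of the 37 genes.

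**Figure D4:**
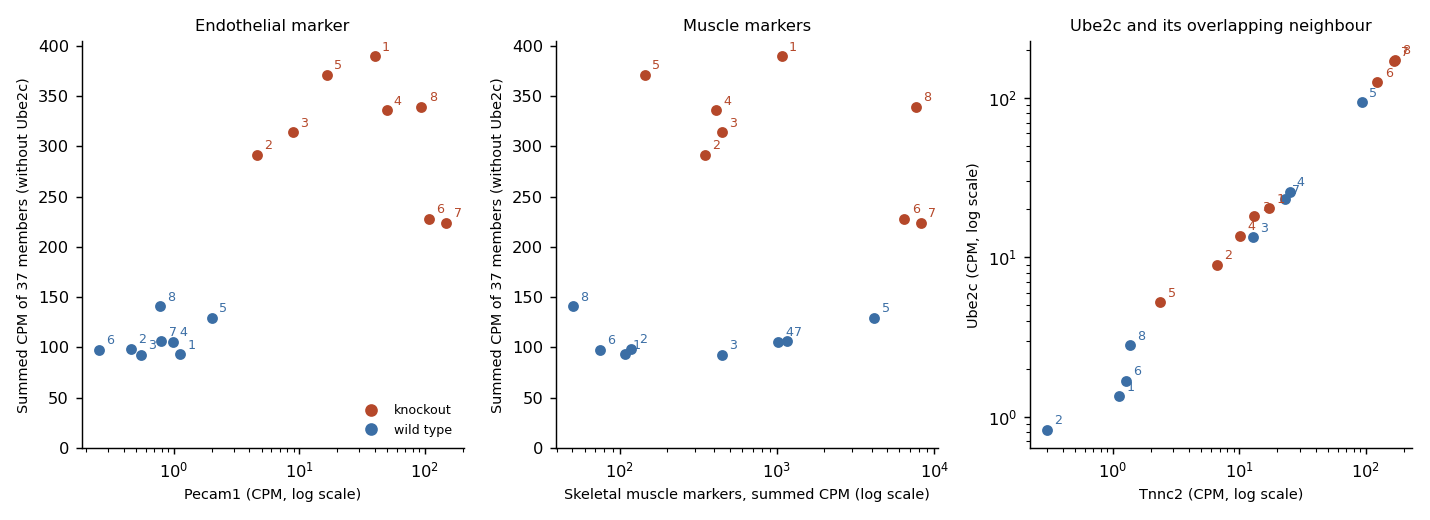
Left and middle, summed CPM of 37 mitosis and spindle genes (Ube2c left out) against Pecam1 CPM and against the summed CPM of skeletal muscle markers, on log x axes; right, Ube2c against Tnnc2 CPM on log axes. Each point is a library, numbered, red for knockout and blue for wild type. Knockout libraries 6 and 7 have the most Pecam1 and the lowest knockout sums, 228 and 224 CPM, and Ube2c follows Tnnc2 in the libraries with much of it.

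No mitosis and spindle gene passed the threshold for a relation with Pecam1 over the 8 knockout libraries, where 59 of 14802 genes (0.399%) did (Pearson correlation of log2 CPM, two-sided exact permutation over 40320 orderings, Benjamini-Hochberg adjusted over all these genes). At an unadjusted exact p under 0.05 there were 2 of the 38, against 14.9% of all genes. By Spearman correlation none passed the adjusted threshold, against 0.142% of all genes. An unadjusted Spearman p under 0.05 was found for 3, and the share over all genes at that level is not given here. The sign was negative in 35 of the 38, against 55.4% of all genes, with a median correlation of -0.33 (all genes -0.07). The strongest negative relation was that of Kif4, at r = -0.78 (exact permutation p = 0.00962, adjusted 0.187) and rho = -0.76 (exact permutation p = 0.0368, adjusted 0.318), and it was -0.56 without the 2 libraries farthest from the median of Pecam1. For Mki67 r was -0.37 and rho -0.36 (exact permutation p = 0.365 and 0.389, adjusted 0.752 and 0.756), and r was -0.78 without those 2 libraries. Positive values were found for Ube2c (0.81), Cdca8 (0.14) and Aurka (0.09). Without the 2 libraries, numbers 2 and 3, which had the least Pecam1, the median over the 38 was -0.71 and 37 were negative. The share and median over all genes are not given for that subset. Whether these values are particular to the 38 genes therefore cannot be said. The genes share libraries and depth, so these counts are descriptions.

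Skeletal muscle RNA moved with Pecam1 in the same libraries. The muscle score, the mean log2 CPM of 11 markers, correlated with Pecam1 at r = 0.82 (exact permutation p = 0.0179, adjusted over 6 library measures 0.0358) and rho = 0.81 (exact permutation p = 0.0218), and at 0.95 without the 2 farthest libraries. Against the muscle score the 38 genes had a median correlation of -0.52, with 37 negative, against 55.6% of all genes, and the 1 gene past the threshold was Ube2c (r = 0.99, exact permutation, adjusted p = 0.0193), where 1.64% of all genes passed. With the muscle score in the same fit, 27 of the 38 slopes on Pecam1 were positive and none passed, where 61 of all tested genes did. The share of positive slopes over all genes is not given here, so the 27 have no background to be read against. The 2 terms of that fit correlate at 0.82 over 8 libraries, so the signs are descriptions only. Muscle markers summed to 6472, 8184 and 7669 CPM in libraries 6, 7 and 8, of which library 8 kept a mitotic sum of 339 CPM. Wild type library 5, also over 4000 CPM, had a mitotic sum of 129 CPM, where its group ran from 92.7 to 141 CPM. A score of mural cell markers followed Pecam1 more closely, at r = 0.99 (exact permutation, adjusted p = 2.23e-04) and rho = 0.98. Pecam1, mural markers and muscle RNA cannot be told apart as companions of the lower mitotic level in knockout libraries 6 and 7.

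The genotypes were also compared without the libraries high on these scales. In the 3 knockout libraries with under 20 CPM of Pecam1 (2, 3 and 5), 36 of the 38 genes were higher than in the 8 wild type libraries, where 19% of 15122 genes were, and the median difference was 1.76. There Mki67 differed by 2.21 (SE 0.202, edgeR adjusted p = 1.67e-06), Ccnb1 by 2.69 and Foxm1 by 1.78, while Ube2c was at -0.95 without passing. Without the 4 libraries with over 4000 CPM of muscle markers, 36 of the 38 were again higher, against 21.9% of 14900 genes, at a median of 1.93, and Mki67 differed by 2.35. Both sets of libraries were chosen after the data were seen.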

How the data were processed

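RNA sequencing of 16 libraries of mouse tail tendon fascicles was analysed, 8 per genotype, grouped by title. Per the file headers, the deposited values are whole-number counts per Ensembl gene. The submitters' processing notes name kallisto, featureCounts and GRCm39. The annotation and the use of strand are not given in the sources used here. Of 25719 identifiers, 25614 matched a symbol in the supplied name table. Chromosomes and exon overlaps came from GENCODE M21 (GRCm38), and promoters from RefSeq (GRCm38.p6), so no position refers to the build behind the counts.

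The main test was the robust quasi-likelihood test of edgeR 4.0.16 (R 4.3.3) with TMM normalisation, the default filter on low counts and genotype as the only term, adjusted with Benjamini-Hochberg over 14803 genes. CPM use TMM-scaled library sizes, log2 CPM a prior count of 2, and the floor is 3 counts per library. Floors cover counting error only. Relations used exact permutations, whose smallest possible p is 2.48e-05 with 8 libraries. The most similar pairs of libraries differed by a chi-square of 8.67 (knockout) and 6.56 (wild type) per degree of freedom, more than sampling noise, so no pair was counted as 1 library.

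The members, lists and tests were chosen with earlier results of these data known. Named genes are all members, Vhl, Pecam1, the 3 genes of smallest p in each other cell cycle list and the inhibitors of cyclin-dependent kinases. Others are said to have been chosen after their values were seen, or are neighbours by exon overlap. Alternatives were DESeq2 1.42.0 size factors and Wald test, total counts, other filters, voom in limma 3.58.1, the replicate block, covariates, and each library left out in turn. Covariates were the muscle score and the summed level of 4 Y-linked genes. Those genes summed to over 1 CPM in 2 knockout and 2 wild type libraries.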

Additional observations from a re-analysis of the deposited data

Results flagged for a closer look

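In 114 checks of 8 libraries each, 1 library, the lowest or the highest, lay far from the rest of its group in 5, where chance gives about 1 in 20, or 5.7. Kif20a was at 10.1 CPM in wild type library 7, where the other wild type libraries lay between 11.9 and 13.1 CPM. Cdca3 was at 0.390 CPM in wild type library 3, against 0.897 to 1.73 CPM in the others. Foxm1 was at 6.84 CPM in knockout library 6, against 10.7 to 15.0 CPM in the other knockout libraries. The inhibitor gene Cdkn1c was at 19.1 CPM in knockout library 1, against 26.7 to 35.5 CPM, and Lin9 at 2.91 CPM in wild type library 1, against 3.78 to 4.76 CPM. The causes were not tested.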

How the results depend on the processing

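Between 36 and 37 of the 38 genes were higher and 0 lower under each of 11 other settings and with each library left out in turn. Over the 11 settings the median lay between 1.72 and 2.03. The highest median, 2.03, came with total counts, which moved the median of all tested genes from 0.02 to 0.32, gave 9685 genes past the threshold in place of 7151 and a share of higher calls of 85.4% in place of 53.0%. With libraries left out the median lay between 1.66 and 1.84, and 45 to 49 other mitosis and 26 to 28 replication genes were higher. With the replicate block 36 genes were higher at a median of 1.75, and 7010 genes passed. Whether equal numbers pair libraries is not given in the labels. Deviations from the group mean correlated between -0.40 and 0.39 over same-numbered libraries, which does not decide it. Ube2c passed with voom (2.69, adjusted p = 0.0472) and without wild type library 5 (2.75, adjusted p = 0.0370), and was -0.95 without the libraries high in Pecam1. Cdkn2d turned to -0.0016 with voom and ran from -0.019 to 0.095 with 1 library left out, negative without knockout library 3 or 5 and without wild type library 1. Rbbp4 turned to 0.077 with total counts.

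Genes related to Pecam1 numbered 21 by Spearman correlation, 624 by an edgeR slope and 99 with the endothelial score. They numbered 0 without the 2 farthest libraries and from 0 to 0 with any 1 library left out. Exact permutation allows no p under 0.00139 with 6 libraries and none under 0.000198 with 7. After adjustment over all genes hardly any gene could pass with so few libraries, so these values of 0 say little. The median correlation of the 38 genes was -0.71 without the 2 farthest and ran from -0.51 to -0.12 with 1 left out, the latter without knockout library 7. Aurka turned to -0.071 (Spearman), -0.0035 (slope), -0.013 (endothelial score) and -0.77 without the 2 farthest, where Cdca8 was at -0.54. With 1 library left out Aurka ran from -0.48 (without library 2) to 0.22, Cdca8 from -0.13 (without library 2) to 0.52 and Foxm1 from -0.45 to 0.17 (without library 6). With the muscle score in the slope fit, Foxm1 was at 0.040, Mki67 at 0.078 and Ube2c at -0.033. The causes were not tested. The covariate of Xist was not run, since Xist is not among the genes used here. Genes with few wild type counts, such as Bub1 and Birc5, limit how well a fold is known.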

Other observations

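The counts of Ube2c exceeded those of Tnnc2, the muscle gene whose exons overlap it, in 16 of 16 libraries. The excess of Ube2c over Tnnc2, a comparison chosen after the values were seen, was 2.98 ± 1.08 CPM in knockout and 0.632 ± 0.386 CPM in wild type libraries (SD, n = 8). It lay between 1.47 and 4.87 CPM in the former and between 0.224 and 1.45 CPM in the latter, so the groups did not overlap, whereas the counts of either gene alone overlapped widely. In knockout library 7 the excess was 40 of 3504 counts and in wild type library 5 it was 7 of 977.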
